A study of Mus musculus with 4 samples.

Results

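Ribosomal protein genes encode the protein parts of the ribosome, and each subunit holds 1 copy of most of them. The genes described here are the 87 symbols of the RefSeq-based table, of 19797 in all, whose name starts with Rps, Rpl or Rplp followed by a number, with Rpsa added, and with the Rps6k kinases and symbols holding -ps left out. They fell into 77 core genes, 31 of the small subunit and 46 of the large subunit, 8 paralogs whose name ends in l or l1, and 2 others, Rps19bp1 and Rps27rt. The choice used names only and no measured value.

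As background, the mRNAs of mammalian ribosomal proteins start with a run of pyrimidines, the 5′ terminal oligopyrimidine (TOP) motif, through which mTOR and the RNA-binding protein LARP1 control their translation. The genes are among the most highly transcribed of a growing cell, and reverse-transcribed copies of their mRNAs left many processed pseudogenes in the genome. Paralogs such as Rpl10l, Rpl3l and Rpl39l are known for tissue-restricted use, in the testis or in striated muscle, where they take the place of the core protein in the ribosome.

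The RNA came from MC1-ZE7, a feeder-free line of mouse embryonic stem cells of strain MC1 (129S6/SvEvTac) with an Emerald reporter of Zscan4, a gene family that few stem cells transcribe at a given time. Cells sorted as Emerald-positive, the high fraction (Em+), gave 2 libraries of total RNA depleted of ribosomal RNA, and Emerald-negative cells (Em-) of the same line gave 2. All 4 libraries share the line, the reporter and the medium with serum and LIF, and no treatment separates the groups. Whether the libraries of a group came from separate cultures or sorts is not in the labels, and the spread that p-values rest on here may be technical.

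Counts in the RefSeq-based table summed to 17927765 and 16468218 in Em+ and to 18364973 and 18953217 in Em-. Zscan4d, a member of the marked family, stood at 22.9 and 18.8 FPKM (fragments scaled by transcript length and by the reads of the library) in Em+, against 0.321 and 0.335 FPKM in Em-, as the sample titles say, while the description field of each sample names the opposite fraction. Of 8 pluripotency markers all were detected, with summed levels of 1299 and 987 FPKM in Em+ and 1353 and 1341 FPKM in Em-. Single markers went both ways. At an unadjusted p under 0.05 (edgeR, described below) 2 were higher and 4 lower in Em+, against 14.5% and 10.7% of all genes. Nanog was higher at an adjusted p = 0.0192 (edgeR), the only marker of this list with an adjusted p under 0.05. The 4 other lists of 8 markers each, for fibroblasts, primitive endoderm, trophoblast, and mesoderm and ectoderm, summed to between 2.80 and 10.9 FPKM in Em+ and between 3.02 and 10.7 FPKM in Em-. The fibroblast list was at 6.32 and 5.22 FPKM in Em+, against 3.40 and 3.64 FPKM in Em-, nearly all of it Thy1, with Col3a1, Postn, Lum and Dcn not listed in the table. Em+ replicate 2 stood apart: its counts on transcripts came to 43.4% of its reads and 7.95% of its counts were on Rn45s, the ribosomal RNA precursor, against 49.0 to 51.1% and 3.93 to 4.33% in the other 3 libraries. Some transcript entries of a gene, as in Rpl34, had equal counts in every library, so that such sums may hold a read more than once. Where leaving out a library changed the call of a member described singly below, the value without it is mostly given. The part that Thy1 and Rn45s have in the results below was not tested, beyond leaving Rn45s out of the counts.

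The levels listed for the core genes differed by far more between genes than between fractions. Mean FPKM over the 4 libraries ran from 0.174 for Rpl26 to 1723 for Rpl8, with a median of 24.5 FPKM, 16 genes under 10 FPKM and 10 genes at 100 FPKM or more. Rpl8, whose protein (uL2) lies near the peptidyl transferase centre, had 1717 and 1242 FPKM in Em+, against 1955 and 1978 FPKM in Em-. It alone made up 29.7% and 28.5% of the summed FPKM of the core genes in Em+, and 29.9% and 30.6% in Em-. Rps15, Rpl41 and Rpl14, also among the most abundant, had means of 305, 296 and 243 FPKM. In the order of mean level, 73 of the 76 pairs of neighbours had overlapping ranges over the 4 libraries, so that the order is known only coarsely.

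At the low end of that order the listed level differed widely with transcript models for Rpl26 and Rpl34, and less for Rpl17 and Rps21. It also differed for genes of higher level, as for Rpl10 below. Rpl26, a protein of the large subunit that also binds the p53 mRNA, had 1 and 2 reads in Em+ and 3 and 8 reads in Em- in the RefSeq-based table, and 644 and 575 reads in Em+, against 880 and 797 reads in Em-, in the Ensembl-based table. These are 0.0503 and 0.0971 FPKM in Em+ and 0.153 and 0.394 FPKM in Em- with the first models, against 31.0 and 26.8 FPKM in Em+ and 43.1 and 37.4 FPKM in Em- with the second. Rpl34 likewise had 1.82 and 2.52 FPKM in Em+ and 2.16 and 2.36 FPKM in Em- in the RefSeq-based table. In the Ensembl-based one it had 11.7 and 12.6 FPKM in Em+, against 13.7 and 13.7 FPKM in Em-. Within the span of Rpl34 the RefSeq-based table also lists Rpl34-ps1, at chr3:130726837-130730329, a symbol that the naming rule leaves out. That entry had 10.5 and 11.4 FPKM in Em+ and 12.2 and 12.2 FPKM in Em-. A low level listed for Rpl34 thus need not mean a scarce mRNA. The level listed for a gene such as Rpl26 or Rpl34 describes a transcript entry, and the models used belong beside it.

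Many reads were listed on pseudogenes of the core genes, and whether these reads came from the gene or from the pseudogene was not tested. Pseudogenes were taken from the GENCODE M21 annotation where they share at least 1 stretch of 50 bases with a member, and each was assigned to the member with which it shares most. In the Ensembl-based table, which lists many of them, the 77 core genes held 210593 and 166002 reads in Em+ and 235495 and 242035 reads in Em-, while their pseudogenes held 516421 and 380759 reads in Em+ and 563350 and 587875 reads in Em-. The pseudogenes' part of the sum was 71.0% and 69.6% in Em+, against 70.5% and 70.8% in Em-, and so differed little between the fractions. For 50 of the 77 core genes over 50% of the reads were on pseudogenes, for 25 over 90%, and the median was 78.4%.

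Rps29, a small zinc-binding protein of the 40S subunit, was the most extreme of those named here, with 99.6% of the sum of reads on its pseudogenes. Its copy Gm14303, at chr2:172509521-172509691 (mm10), had 31758 and 22307 reads in Em+, against 35088 and 35461 reads in Em-, while the gene itself had 115 and 99 reads in Em+ and 150 and 128 reads in Em-. Gm11478, a copy of Rpl13a at chr11:86630428-86631026, had 35560 and 26939 reads in Em+ and 39589 and 40522 reads in Em-. Rpl14-ps1, at chr7:45324958-45325651 and also in the RefSeq-based table, had 29295 and 22407 reads in Em+, against 33380 and 35424 reads in Em-, over 3 times the reads of Rpl14 in each library. Rpl8 was among 6 core genes with no read on a pseudogene. The 7 core genes with 0 or 1 pseudogene sharing a 50-base stretch had a median level of 175 FPKM, the 36 with 2 to 9 had 24.4 FPKM, and the 34 with 10 or more had 21.9 FPKM. Across the 77 core genes Spearman's rho between mean FPKM and the number of such pseudogenes was -0.32, a description only, since genes are not independent. Levels are therefore compared below mainly within a gene between fractions.

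**Figure D1:**
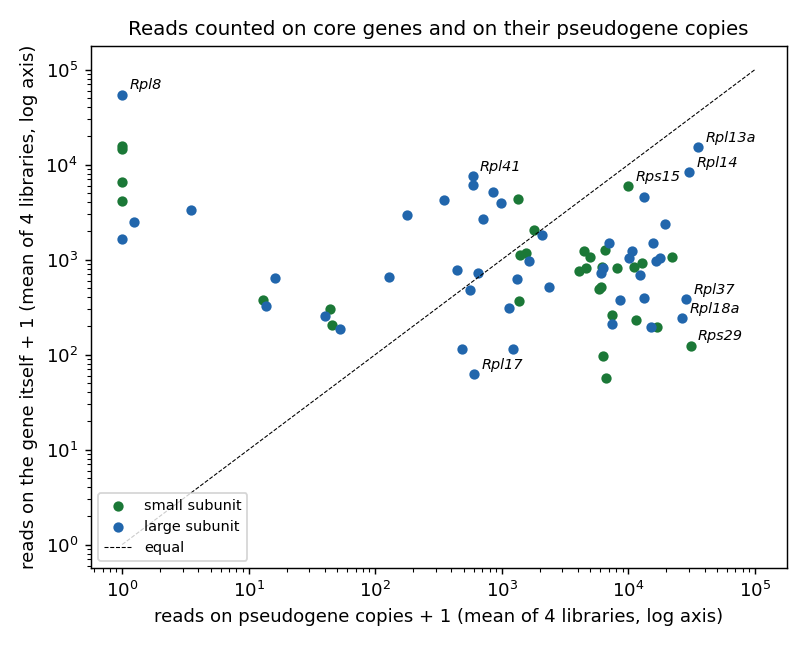
Reads listed on each of the 77 core genes (vertical, log axis) against reads listed on its pseudogene copies (horizontal, log axis) in the Ensembl-based table, as the mean of all 4 libraries with 1 added, by subunit. The 50 genes right of and below the dashed line had more reads on pseudogenes than on themselves, and the 6 genes with none, Rpl8 among them, stand at the left edge.

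Between the fractions, no single core gene passed the test and nearly all were slightly lower in Em+. Counts per symbol were tested with edgeR's quasi-likelihood test, adjusted over the 12050 genes with a mean of at least 1 FPKM, which left out Rpl26 among the members. At an adjusted p of 0.05, 4.64% of all genes tested were called, 3.82% as higher and 0.822% as lower in Em+, and among the 76 core genes tested 0 were called. At an unadjusted p under 0.05, 24 of the 76 core genes were lower in Em+, against 10.7% of all genes, and 0 were higher, against 14.5% of all genes. DESeq2 called 2 core genes, both lower (2.63%), against 1.24% of all genes called lower by it.

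The direction was shared by genes of both subunits. The log2 fold change (Em+ over Em-) was negative for 72 of 76 core genes (94.7%), against 49.3% of all genes tested, and its median was -0.18, against 0.00 over all genes. That median corresponds to a level in Em+ of 0.882 times that in Em-. Small-subunit genes had a median of -0.17 (30 of 31 negative) and large-subunit genes one of -0.18 (42 of 45 negative). For 57 of the 76 core genes (75%) both Em+ libraries lay below both Em- libraries, against 29.7% of all genes, and for 0 both lay above, against 29.7% of all genes. In this bulk measurement, fewer cells with a transcript and less of it per cell cannot be told apart.

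**Figure D2:**
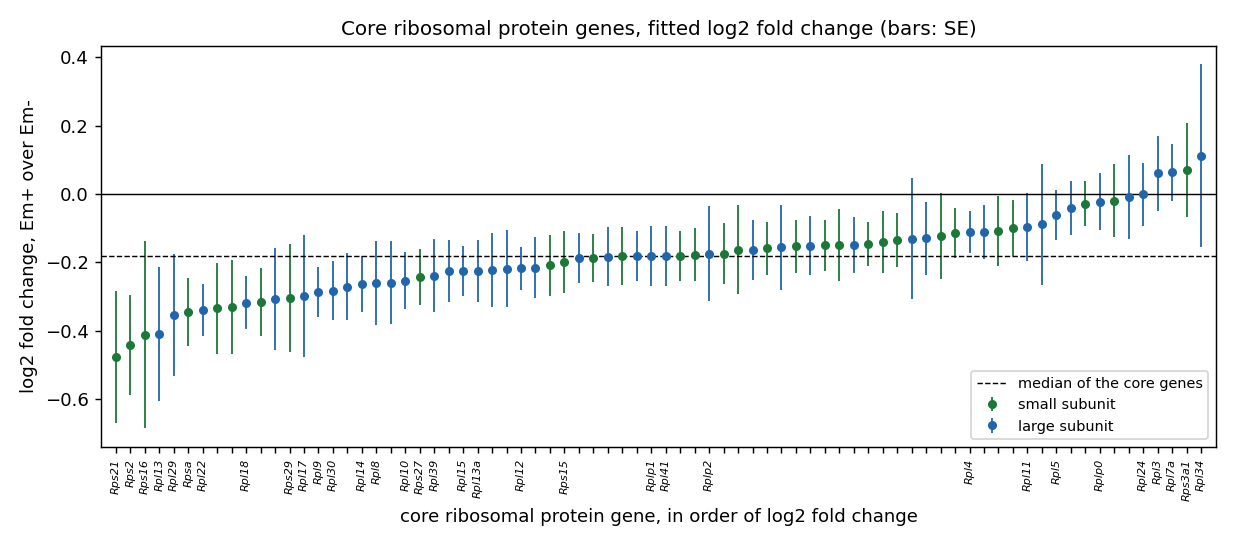
Log2 fold change (Em+ over Em-) of the 76 core genes tested, with its standard error as a bar, ordered from the lowest, Rps21 at -0.48, to the highest, Rpl34 at 0.11, and coloured by subunit, with the names of genes described in the text. The dashed line marks the median of -0.18, and 72 points lie below 0.

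Both Em+ libraries contributed to the lower values, unequally. The median log2 ratio of the core genes to the Em- mean was -0.15 in Em+ replicate 1 and -0.22 in Em+ replicate 2, the library with more Rn45s. Without Em+ replicate 1, 34 of 76 core genes were called lower (44.7%), against 19.5% of all genes. Without Em+ replicate 2, 15 were called lower (19.7%), against 6.9% of all genes. Of these, Rpl8, Rpl9, Rpl12, Rpl14, Rpl15, Rpl18, Rpl22, Rpl30 and Rpsa were called in both settings, a list that was read from the results. Both settings use the same Em- libraries, and the share of all genes called in both was not computed. In each of these fits the lone Em+ library is assumed to vary like the Em- libraries. Leaving out Em- replicate 2 gave 2 calls (2.63%), against 0.606% of all genes called lower, and leaving out Em- replicate 1 gave 0, against 0.274% of all genes. With Rn45s left out of the counts, the core median was again -0.18, with 71 of 76 negative and 0 called.

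The part of each library taken by core transcripts differed in the same direction. Core genes made up 2.07% and 1.91% of the summed FPKM in Em+, against 2.21% and 2.26% in Em-, with no overlap between the groups. As a part of the counts they made up 0.953% and 0.811% in Em+, against 1.03% and 1.03% in Em-. With 2 libraries a group the exact permutation test cannot give a p below 0.33, so that no test was made of these values. On the FPKM scale, where libraries are scaled to all reads and not to those on transcripts, the median of all genes tested was itself -0.14 on log2(FPKM + 1), that of the core genes -0.34, and the difference of these medians -0.20.

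Fold changes within the core had little rank relation to transcript length, copies or level. Among all genes tested, the 1775 with transcripts under 1000 bases had a median log2 fold change of -0.09, with 61.1% negative and 35.2% with both Em+ libraries below both Em- libraries, so that short transcripts as a class leaned the same way by less. Within the core, Spearman's rho of the log2 fold change was 0.15 with length, -0.03 with mean FPKM and -0.05 with the part of the transcript's 50-base stretches found in no other gene. The median was -0.18 in each of the 3 classes by number of pseudogenes. When reads on pseudogenes were added to their parent genes in the Ensembl-based table, an alternative chosen after the data were seen, 75 of 77 core genes were negative, the median was -0.22 and 0 were called, while 31 were lower at an unadjusted p under 0.05. The SD of the log2 fold change over the 77 genes was 0.0954 with the copies added and 0.166 without.

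**Figure D3:**
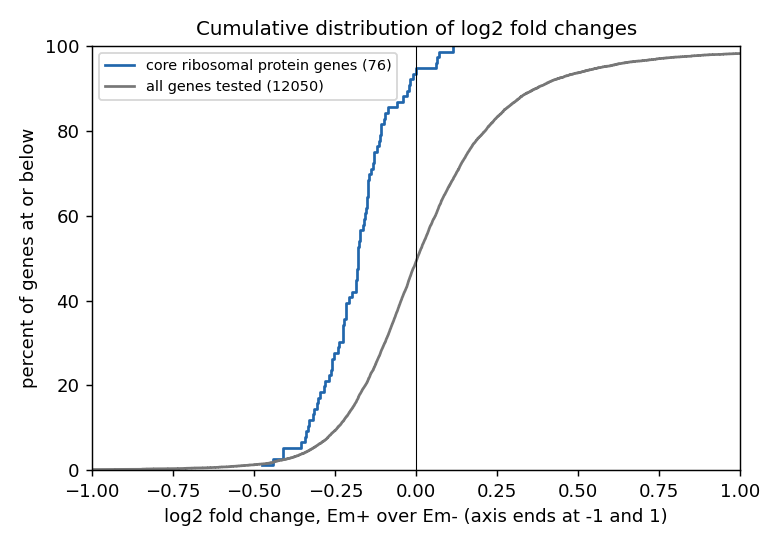
Percentage of genes at or below each log2 fold change (Em+ over Em-), for the 76 core genes tested and for all 12050 genes tested; the horizontal axis ends at -1 and 1. At 0 the core curve has reached 94.7% and the curve of all genes 49.3%.

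Single small-subunit genes show how wide this shift is against the spread of the libraries. Rps2 (uS5), which lines the mRNA entry channel, had 76.7 and 85.2 CPM (counts scaled to library size by TMM) in Em+, against 128 and 92.0 CPM in Em-. The Em- libraries lay above the Em+ libraries but far apart, for a log2 fold change of -0.44 (SE 0.15, adjusted p = 0.125, edgeR). Rps2 was called lower by DESeq2 (adjusted p = 0.0438), with replicate number as a block (adjusted p = 0.0116, edgeR), at -0.52 without Em+ replicate 2 and at -0.66 without Em- replicate 2, while without Em- replicate 1 it stood at -0.19 and was not called. Rps21, a protein of eukaryotic small subunits, had 2.45 and 2.34 CPM in Em+ and 3.52 and 3.16 CPM in Em-, the lowest log2 fold change of the core at -0.48 (SE 0.19, adjusted p = 0.181, edgeR), and rests on 37 to 64 reads a library. It was called lower by limma on log2(FPKM + 1), at -0.50. Rps16 (uS9), whose tail contacts the transfer RNA in the P site, overlapped between the groups with 2.23 and 3.41 CPM in Em+ and 4.40 and 3.06 CPM in Em-. Rps3a1 had 10.7 and 11.7 CPM in Em+ and 9.67 and 11.6 CPM in Em-, also overlapping, at a log2 fold change of 0.07.

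Rps15 (uS19), which lies at the contact between the subunits, had 334 and 279 CPM in Em+ and 354 and 350 CPM in Em-. Both Em+ libraries lay below both Em- libraries, for a log2 fold change of -0.20 (SE 0.09, adjusted p = 0.225, edgeR). Among the settings run it was called lower only without Em+ replicate 1, at -0.33, and it stood at -0.08 without Em+ replicate 2.

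Among large-subunit genes Rpl22 came nearest to the threshold. RPL22 binds structured RNA and, beside its place in the ribosome, holds down its own paralog Rpl22l1 in mouse cells. Rpl22 had 416 and 376 CPM in Em+, against 495 and 507 CPM in Em-, with no overlap and a log2 fold change of -0.34 (SE 0.08, adjusted p = 0.0515, edgeR). It was called lower with upper-quartile scaling, with DESeq2, without the filter on low values, with replicate number as a block (adjusted p = 0.0167, edgeR), and when either Em+ library was left out, at -0.41 without replicate 1 and -0.27 without replicate 2. It was not called when either Em- library was left out, at -0.36 and -0.32. Nearly all of its reads (99.9%) were listed under the transcript entry NR_102291, at chr4:152325726-152334082, which RefSeq classes as non-coding.

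The 3 large-subunit genes with the highest mean FPKM were likewise lower in both Em+ libraries, which did not hold for every abundant one. Rpl8 had 3017 and 2564 CPM in Em+ and 3325 and 3357 CPM in Em- (log2 fold change -0.26, SE 0.12, adjusted p = 0.232, edgeR). Rpl14 (eL14) had 453 and 398 CPM in Em+, against 515 and 508 CPM in Em-, and a log2 fold change of -0.26 (SE 0.08, adjusted p = 0.111, edgeR). Rpl41, which encodes the smallest protein of the ribosome, had 279 and 236 CPM in Em+ and 295 and 288 CPM in Em-. In all 3 genes Em+ replicate 2 was the lowest library and the groups did not overlap. Rpl8 and Rpl14 were called lower when either Em+ library was left out, at -0.38 and -0.36 without Em+ replicate 1 and at -0.15 and -0.18 without Em+ replicate 2. Rpl41, at -0.18 with all libraries, was called lower at -0.30 without Em+ replicate 1 and stood at -0.07 without Em+ replicate 2.

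Several of the large-subunit genes at the ends of the orders by log2 fold change and level were of low count or had many copies. Rpl13 (eL13) had 8.53 and 11.3 CPM in Em+, against 15.2 and 11.1 CPM in Em-, so that the groups overlapped at a log2 fold change of -0.41, and it was called lower only without Em- replicate 2, at -0.62. Rpl29 (eL29) had 5.02 and 4.67 CPM in Em+ and 5.39 and 7.01 CPM in Em-, at -0.35, and shares 50-base stretches with 81 pseudogenes. Rpl17, which lies near the exit of the peptide tunnel, was among the lowest in level. It had 3.23 and 3.47 CPM in Em+ and 4.40 and 3.85 CPM in Em-, at -0.30, and shares stretches with 50 pseudogenes. At the upper end by log2 fold change was Rpl34 at 0.11, which rests on 37 to 53 reads a library. Rpl7a stood at 0.06, with stretches shared with 119 pseudogenes. Rpl3, a protein near the catalytic centre, was at 0.06 and Rpl24, an intersubunit bridge protein, at 0.00. In these 4 genes the groups overlapped. Without Em+ replicate 2 all 4 changed sign, to -0.26, -0.02, -0.06 and 0.04.

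The P stalk recruits translation factors and is built of Rplp0 with pairs of Rplp1 and Rplp2. Rplp0 had 262 and 225 CPM in Em+, against 245 and 249 CPM in Em-, the groups overlapping at a log2 fold change of -0.02, which was -0.14 and called lower without Em+ replicate 1 and 0.08 without Em+ replicate 2. With the Ensembl- and ENCODE-based tables Rplp0 was called higher (0.72 in each, adjusted p = 0.0284 and 0.0276, edgeR), where the Ensembl-based table gave it only 228 and 233 reads in Em+ and 157 and 150 reads in Em-, and 98.7% of the reads were on its pseudogenes. Rplp1 had 224 and 192 CPM in Em+ and 244 and 226 CPM in Em-, at -0.18, and was called lower without Em+ replicate 1, at -0.30. Rplp2 had 6.02 and 6.44 CPM in Em+ and 7.31 and 6.75 CPM in Em-, at -0.17, while the locus Rplp2-ps1, at chr12:75630925-75631749, had 26622 and 20468 reads in Em+, against 30555 and 30783 reads in Em-. The reads of that locus are not in the sums of pseudogene reads above, nor in the fit with such reads added. There, pseudogenes of Rplp2 held 10 and 24 reads in Em+ and 8 and 9 reads in Em-. Rpl5 and Rpl11, which with 5S rRNA form the particle that inhibits MDM2 when ribosome assembly is disturbed, had log2 fold changes of -0.06 and -0.10 (adjusted p = 0.627 and 0.571, edgeR). In the RefSeq-based table with all 4 libraries, no gene of the P stalk or of the 5S particle was called by edgeR or DESeq2, or had an unadjusted p under 0.05 in either.

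The paralogs behaved differently from each other. Rpl10l was the only 1 of the 86 members tested that was called higher in Em+, against 3.82% of all genes tested. RPL10L replaces RPL10 in male meiosis, when the X-linked Rpl10 is silenced, and is needed for the maturation of mouse spermatocytes. Rpl10l had 60.9 and 54.7 CPM in Em+, against 31.5 and 31.5 CPM in Em-. Both Em+ libraries lay well above both Em- libraries, by a log2 fold change of 0.88 (SE 0.08, adjusted p = 0.00104, edgeR). In FPKM the values were 29.2 and 22.3 in Em+ and 15.6 and 15.6 in Em-.

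The reads of Rpl10l could be told from its relatives. The gene is a single block of 1023 bases at chr12:66283379-66284401 on the minus strand (mm10). Of its 50-base stretches 92.4% occur in no other annotated gene, against 7.87% for Rpl10, and 0.0639% of its reads in the Ensembl-based table were on a pseudogene. Its counts were 1092 and 866 in Em+ in each of the 4 tables, against 573 and 597 or 598 in Em-. Rpl10 itself, on chromosome X, had 53.6 and 49.3 CPM in Em+ and 63.4 and 59.2 CPM in Em-, a log2 fold change of -0.25 (SE 0.08, adjusted p = 0.124, edgeR), lower in both Em+ libraries and called lower only without Em+ replicate 1, at -0.31. Per length, Rpl10 stood at 33.0 and 25.9 FPKM in Em+ and at 40.4 and 37.8 FPKM in Em- in the RefSeq-based table, and at 121 and 93.8 FPKM in Em+ and 147 and 140 FPKM in Em- in the Ensembl-based one. How far Rpl10l lay below Rpl10 in level thus differed with the transcript models.

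Rpl10l was called higher in every count fit run, with log2 fold changes from 0.82 to 0.91 over scalings, filters, tables and DESeq2, and from 0.80 to 0.95 without single libraries. The exceptions were the fits of log2(FPKM + 1) and log2(FPKM + 0.1) with limma, which gave 0.67 and 0.71 with adjusted p = 0.0608 and 0.0697.

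Rpl22l1 was the only 1 of the 86 members tested that was called lower, against 0.822% of all genes tested. Its protein is the partner paralog of RPL22, and the pair is known to have opposing functions in blood development in zebrafish. Rpl22l1 had 19.2 and 18.3 CPM in Em+, against 26.4 and 24.6 CPM in Em-, without overlap, and a log2 fold change of -0.44 (SE 0.10, adjusted p = 0.0469, edgeR). The call lay at the edge of the threshold and was lost with DESeq2 (adjusted p = 0.0850). Leaving out a single Em- library also ended it, with an adjusted p of 0.319 for replicate 1 and of 0.0983 for replicate 2 (edgeR), as did the limma fits, the known-gene table and the stricter filter of 5 FPKM. The call was lost, too, when pseudogene reads were added, at a log2 fold change of -0.22 (adjusted p = 0.248, edgeR): the copies held 12414 and 9362 reads in Em+ and 13428 and 14070 reads in Em-, 96.9% of the sum. Rpl22 and Rpl22l1 were both lower in both Em+ libraries.

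**Figure D4:**
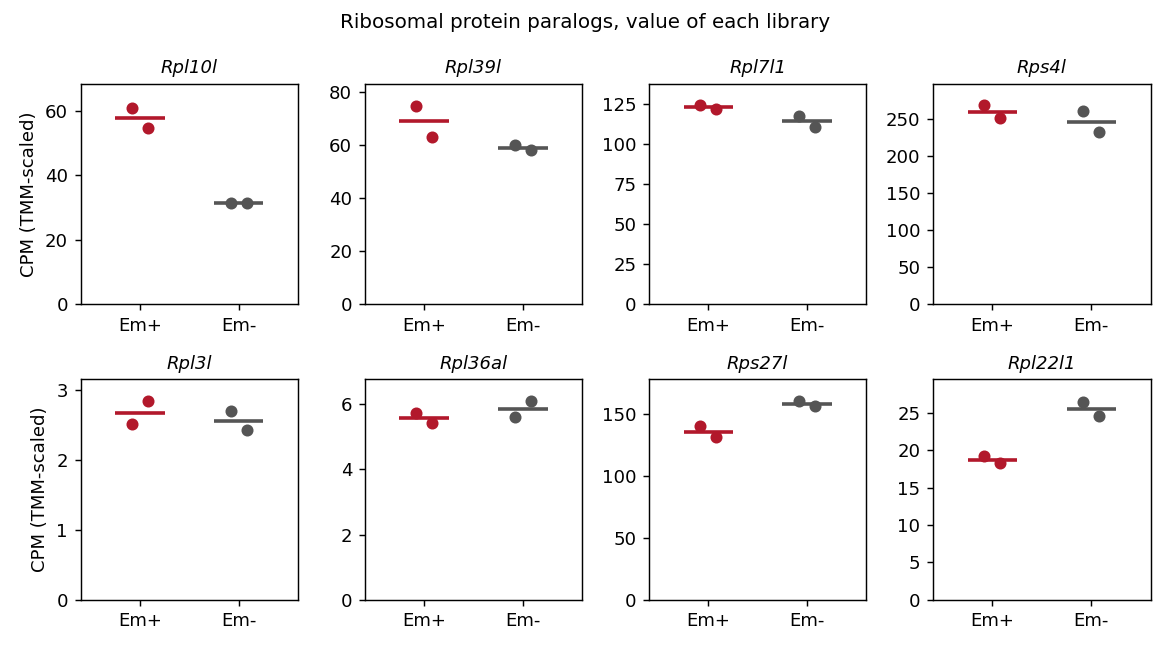
CPM, counts scaled to library size by TMM, of the 8 paralogs in each library (points; 2 Em+ libraries left, 2 Em- libraries right) with the group mean as a line and all axes from 0. Rpl10l stands at 60.9 and 54.7 CPM in Em+ and 31.5 CPM in both Em- libraries, and Rpl22l1 and Rps27l lie lower in both Em+ libraries.

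The other 6 paralogs were not called. Rps27l, an S27 variant that p53 induces in human cells, had 140 and 131 CPM in Em+, against 160 and 156 CPM in Em-. Its groups did not overlap (log2 fold change -0.22, SE 0.07, adjusted p = 0.0974, edgeR). Rps27l was called lower when either Em+ library was left out, at -0.27 without replicate 1 and -0.18 without replicate 2. Rpl39l, which in the mouse testis stands in for RPL39, had 74.7 and 62.9 CPM in Em+ and 59.97 and 57.9 CPM in Em-, also without overlap (0.22, SE 0.10, adjusted p = 0.205, edgeR), and was called higher only without Em+ replicate 2, at 0.34, while without Em+ replicate 1 it stood at 0.10. Its core counterpart Rpl39 had 18.1 and 15.9 CPM in Em+ and 20.1 and 20.1 CPM in Em-, at -0.24 (adjusted p = 0.216, edgeR), and was called lower only without Em+ replicate 1, at -0.33. With all 4 libraries neither Rpl39l nor Rpl39 was called, and the difference between them was not tested.

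Rpl7l1, a nucleolar protein of ribosome assembly, had 124 and 122 CPM in Em+ and 117 and 111 CPM in Em-, at 0.11 (adjusted p = 0.323, edgeR). Rpl3l, which replaces RPL3 in striated muscle, was near the detection floor with 45 and 45 reads in Em+ and 49 and 46 reads in Em-. Rpl36al had 5.74 and 5.43 CPM in Em+ and 5.61 and 6.11 CPM in Em-. Rps4l, listed as a non-coding entry at chr6:148354656-148355596, had 269 and 251 CPM in Em+ and 261 and 232 CPM in Em-. The groups overlapped in Rpl3l, Rpl36al and Rps4l, whose log2 fold changes were 0.06, -0.07 and 0.08.

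Neither of the remaining members was called. Rps19bp1 encodes a nucleolar partner of RPS19 and is no ribosomal protein. It had 30.5 and 26.8 CPM in Em+, against 33.8 and 31.0 CPM in Em-, at -0.18, and was called lower only without Em+ replicate 1, at -0.27. Rps27rt is listed at chr3:90212667-90213647, the span of Rps27, with 62 and 60 reads in Em+ and 65 and 59 reads in Em-. The Rps27 transcript NM_027015 has those same counts, so that Rps27rt cannot be separated from Rps27 in this table.

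Small nucleolar RNAs that guide modification of ribosomal RNA lie within the transcript spans of 21 members, and 30 of them were tested. Their place against exons and strand was not compared. As many as 20 had a negative log2 fold change, with a median of -0.08, against -0.01 over all 104 small nucleolar RNAs tested, and 0 were called in either set by edgeR. Of the 30, 2 were higher and 3 lower at an unadjusted p under 0.05 (edgeR), against 14.5% and 10.7% of all genes, and DESeq2 called 0. Snora70, within Rpl10, had 8.19 and 7.52 CPM in Em+ and 10.99 and 10.1 CPM in Em-, and Snord16a, within Rpl4, had 14.5 and 14.0 CPM in Em+ and 10.5 and 11.2 CPM in Em-. At -0.42 and 0.39 these had the lowest and the highest log2 fold change of the 30, with adjusted p = 0.104 and 0.0938 (edgeR). Where reads of a member and of the small RNA within its span overlap, the table cannot separate them.

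Ribosomal proteins whose symbols fall outside the naming rule gave values in the range of the core. Fau (eS30, made as a fusion with a ubiquitin-like protein) and Gnb2l1 (RACK1) had log2 fold changes of -0.39 and -0.16, and in both genes both Em+ libraries lay below both Em- libraries. Gnb2l1 had 1047 and 862 CPM in Em+, against 1066 and 1066 CPM in Em-. Neither was called by edgeR or DESeq2, and Fau was lower at an unadjusted p under 0.05 (edgeR). Gnb2l1 was called lower without Em+ replicate 1, at -0.31, and stood at -0.03 without Em+ replicate 2.

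Among other mRNAs known to carry a TOP motif, 22 were listed and 21 tested, of which 14 had a negative log2 fold change (66.7%, against 49.3% of all genes), with a median of -0.15. Their median log2 ratio to the Em- mean was -0.05 in Em+ replicate 1 and -0.23 in Em+ replicate 2, so that most of the shift was in the library with more Rn45s. By edgeR 0 were called, 6 had an unadjusted p under 0.05 with a lower level, against 10.7% of all genes, and DESeq2 called 1, Npm1, as lower. Eef1a1, which delivers aminoacyl-tRNA, had 5078 and 4270 CPM in Em+, against 5460 and 5614 CPM in Em- (-0.24, adjusted p = 0.313, edgeR). Npm1, a nucleolar chaperone, had 1645 and 1453 CPM in Em+ and 1838 and 1959 CPM in Em- (-0.29, adjusted p = 0.143, edgeR). In both genes the groups did not overlap, and both were called lower when either Em+ library was left out, Eef1a1 at -0.37 without Em+ replicate 1 and -0.13 without Em+ replicate 2, and Npm1 at -0.39 and -0.21. Snhg1, a host of small nucleolar RNAs, had overlapping groups at -0.02.

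Genes that act on TOP mRNAs and on ribosome assembly or rescue were not called by edgeR with all 4 libraries. The list of mTOR and TOP regulators had 20 tested genes and a median log2 fold change of 0.06, with 12 positive. At an unadjusted p under 0.05 (edgeR) 3 of the 20 were higher, near the 14.5% of all genes. Among them Rps6ka3, a kinase of the MAPK pathway that phosphorylates ribosomal protein S6, had a log2 fold change of 0.57 and was called higher by DESeq2. The most abundant members of the list, the mTOR target Eif4ebp1, the RNA-binding protein Larp4 and the mTOR activator Rheb, stood at -0.08, -0.06 and -0.10; Eif4ebp1 was called lower without Em+ replicate 1, at -0.18, and stood at 0.01 without Em+ replicate 2. Among 14 chaperones and importins of ribosomal proteins, 10 were negative (71.4%, against 49.3% of all genes) and the median was -0.09. Bccip, a chaperone of RPL23, stood at -0.26, Kpnb1, an importin, at -0.13 and Nap1l4, a histone chaperone, at -0.02. Of the 14, 1 gene was higher and 1 lower at an unadjusted p under 0.05 (edgeR), against 14.5% and 10.7% of all genes. Without Em+ replicate 1 Bccip and Kpnb1 were called lower, at -0.39 and -0.19. The 11 tested factors of ribosome rescue and recycling had a median of 0.02, with the recycling ATPase Abce1 at -0.18, the quality-control factor Nemf at 0.00 and Eif2d at 0.04. At an unadjusted p under 0.05 (edgeR) 1 of the 11 was higher and 0 were lower, against 14.5% and 10.7% of all genes. Abce1 was called lower when either Em+ library was left out, at -0.24 and -0.12. With all 4 libraries, adjusted p-values of all genes in these lists and in the TOP list were 0.0619 or more (edgeR).

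Windows around the annotated start sites held a long run of pyrimidines in some members and only short runs in others. Sequences of 250 bases before to 50 after the annotated start were taken from RefSeq (GRCm38.p6, the assembly of mm10) and found for 66 of the 87 members, 57 of them core genes. Below are 30 bases around the start on the gene's strand, with 15 before it and the start as the next base. They are given for core genes of high and low listed level, and for the paralogs with a call or with groups that did not overlap. Capitals mark the longest run of C and T in the window.
Rpl14: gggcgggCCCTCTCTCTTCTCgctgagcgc
Rps15: CCCggcagagctcgcgataactgcgcaagc
Rpl41: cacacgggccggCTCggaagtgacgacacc
Rpl34: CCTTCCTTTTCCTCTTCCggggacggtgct
Rpl26: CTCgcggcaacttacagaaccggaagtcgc
Rpl10l: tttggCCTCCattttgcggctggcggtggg
Rpl22l1: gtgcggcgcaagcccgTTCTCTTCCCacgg
Rpl39l: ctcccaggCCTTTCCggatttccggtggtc
Rps27l: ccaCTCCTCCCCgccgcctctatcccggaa

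These windows lie at chr9:120571502-120571531 (plus strand) for Rpl14, chr10:80292416-80292445 (plus) for Rps15, chr10:128549154-128549183 (minus) for Rpl41, chr3:130730323-130730352 (minus) for 1 of the starts of Rpl34, chr11:68901551-68901580 (plus) for Rpl26, chr12:66284387-66284416 (minus) for Rpl10l, chr3:28805493-28805522 (plus) for Rpl22l1, chr16:10170213-10170242 (plus) for Rpl39l and chr9:66946071-66946100 (plus) for 1 of the starts of Rps27l. The run was 14 bases in Rpl14, 18 in Rpl34 and 10 in Rpl22l1, against 5 in Rpl10l and 3 in Rps15, Rpl41 and Rpl26. The run was sought anywhere in the window and need not begin at the start, so a TOP motif cannot be read from it. In Rpl10l, Rpl39l and Rps27l, among others, the run lay wholly before the annotated start. An annotated start may lie some bases from the one used in these cells. A short run in the window says nothing of how the mRNA is translated.

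Over the 57 core genes, 25 (43.9%) had a run of at least 8 pyrimidines in this window, against 13.9% of 27025 genes with a promoter sequence. Within the whole promoter sequences, on either strand, CCGGAAG, the core of sites bound by ETS-family factors, was found in 42.1% of core genes and 9.93% of all genes. ATGGCGG, letters found within YY1 sites, was in 15.8% of core genes and 4.69% of all genes. GGGCGG, the GC box, was in 61.4% and 38.2%, and TATAAA in 10.5% and 15.7% of core genes and of all genes. ATGGCGG and GGGCGG share their last letters but cannot match at the same place. A match is a description of the sequence and not a measured binding site.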

How the data were processed

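RNA of 2 Em+ and 2 Em- libraries was compared, grouped by the sample titles. The authors deposited 4 tables of transcripts (RefSeq, Ensembl, known-gene and ENCODE models), which per the file headers hold a raw count and an FPKM value for each library. The submitters' processing notes name Bowtie2 and mm10. Not given in the sources used here are the counting program, its use of strand and its handling of reads with several matches, so that near-identical copies and overlapping genes are uncertain as single entries. The count column of Em- replicate 1 is 0 throughout in the RefSeq and Ensembl tables. Its counts were computed from deposited FPKM, transcript length and library total, and 99.6% of 12803 shared transcripts equalled the known-gene count.

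Counts and FPKM were summed per symbol of the RefSeq table, and the 12050 symbols with a mean of at least 1 FPKM were tested with edgeR 4.0.16 (TMM, quasi-likelihood test, R 4.3.3, Benjamini-Hochberg adjustment over all genes tested, threshold 0.05), first tested on simulated data. Fold changes are Em+ over Em-. Between 98.6% and 99.0% of the counts were on tested genes. Where several transcript entries of a gene list the same reads, its summed count and FPKM hold them more than once. Totals of 16468218 to 18953217 counts leave genes with under 100 reads a library, such as Rps21, with wide errors. DESeq2 1.42.0, limma 3.58.1, other scalings, filters and tables, a replicate term, and fits without each library were alternatives. Pseudogenes were found as shared 50-base stretches in GENCODE M21 transcripts. Named genes are all paralogs and other members outside the core, the 5 core genes at each end of the orders by mean FPKM and by log2 fold change, the P stalk, the 5S particle, the ribosomal proteins outside the rule, and of each further list those called and the 3 most abundant; Rpl22, counterparts of paralogs, members with many pseudogene reads and single small nucleolar RNAs were chosen after their values were seen, as was Rps6ka3. Members and lists were chosen with earlier results of these data known. Some genes that this rule names are not reported here.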

Additional observations from a re-analysis of the deposited data

How the results depend on the processing

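The core median stayed negative in all 18 alternatives and moved by over the spread of the Em+ libraries (SD 0.05) in 3 of them, to -0.34 and -0.35 with limma on log2(FPKM + 1) and log2(FPKM + 0.1), where all genes shifted by -0.14 and -0.16, and to -0.24 without the filter on low values; leaving out single libraries gave -0.22 to -0.15. The ratio of the core genes' share of FPKM, Em+ over Em-, was 0.891 and ran from 0.853 to 0.897.

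The count of core genes called, 0, became 1 lower with upper-quartile scaling (1.32%, against 1.15% of all genes), 2 lower with DESeq2 (2.63% against 1.24%), 1 lower with limma on log2(FPKM + 1) (1.32% against 0.556%) and 3 lower without a filter (3.9% against 1.47%). It became 2 with each of the Ensembl and ENCODE tables, 1 of them lower (1.3%, against 0.634% and 0.686% of all genes) and 1, Rplp0, higher (against 3.38% and 3.42%), and ran from 0 to 34 without single libraries. The paralogs' count of 2 became 1 with DESeq2, the stricter filter, the known-gene table or pseudogene reads added, and 0 with either limma fit, and ran from 1 to 4 without single libraries. All genes called, 559, became 293 and 269 with the limma fits, 1178 without a filter and 171 with a mean of at least 5 FPKM, and ran from 490 without Em- replicate 1 to 4992 without Em+ replicate 1, with 1968 without Em+ replicate 2. The cause of these moves was not tested.

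With replicate number as a block, 6 core genes were called lower (7.89%), against 3.83% of all genes, and 1552 genes in all. The deviations of same-numbered libraries correlated at r = 0.003 over genes, with 2 pairs only, so that the numbers give no evidence of pairing and the samples share only a number.

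Of 867 values of single genes taken from the naming rule or named in addition, 769 kept their direction and side of the threshold, 10 lost a call, 39 gained one and 49 changed sign. With the limma fits on log2(FPKM + 1) and log2(FPKM + 0.1) the log2 fold changes of changed sign were -0.046 and -0.080 for Rpl3l, -0.051 and -0.053 for Rpl7l1, -0.086 and -0.087 for Rps4l, -0.038 and -0.045 for Rps27rt, -0.047 and -0.070 for Rpl34, -0.073 and -0.084 for Rps3a1, -0.098 and -0.10 for Rpl7a, -0.093 and -0.10 for Rpl3, and -0.12 and -0.12 for Eif2d. With the Ensembl and ENCODE tables they were 0.72 and 0.72 for Rplp0, which was called, -0.023 and -0.029 for Rpl34, and 0.18 and 0.17 for Rpl24. With pseudogene reads added they were -0.23 for Rpl34, -0.29 for Rps3a1 and -0.25 for Rpl3. With the stricter filter they were 0.015 for Rplp0 and for Snhg1, 0.016 for Nap1l4, 0.037 for Rpl24 and 0.036 for Nemf. Rpl24 and Nemf, at 0.00 with all genes counted, were at 0.0016 and 7.7e-05 without Rn45s. Eif2d was at -0.019 without a filter and Larp4 at 0.13 with the known-gene table. Leaving out single libraries gave -0.029 to 0.15 for Rpl3l, -0.26 to 0.43 for Rpl34, -0.058 to 0.21 for Rps3a1, -0.020 to 0.14 for Rpl7a, -0.062 to 0.18 for Rpl3, -0.14 to 0.080 for Rplp0, -0.058 to 0.0078 for Snhg1, -0.18 to 0.0082 for Eif4ebp1, -0.0050 to 0.16 for Rps4l, -0.041 to 0.035 for Rpl24 and -0.10 to 0.052 for Nap1l4. The cause was not tested.

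With 2 libraries a group, 0 of 76 core genes passed the adjusted threshold at a median log2 fold change of -0.18, and genes of few reads, such as Rps21, Rps16, Rpl34 and Rpl3l, have wide standard errors (0.19 to 0.27). Reads shared with copies limit every level of a core gene.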
